A study of Mus musculus with 6 samples.

Results

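Ankrd1, the 2 natriuretic peptide genes Nppa and Nppb, and 7 genes of the YAP-TEAD system were described in arrays labelled as Sp3 knockout and as wildtype embryonic heart. The 7 genes were Ccn1, Ccn2, Amotl2, Lats2 and Axl, which are known targets of the YAP coactivator, and Yap1 and Tead1, which encode the coactivator and a DNA-binding partner. Members were all probe sets annotated to 1 of these 10 genes alone, 22 of the 45037 probe sets tested. A further probe set, 1421055_at, was annotated to Lats2 together with Xpo4 and was left out. The Sp3 knockout group had 3 arrays and the wildtype group had 3, lettered a to c in each. Per the labels, each array read the total RNA of 1 heart dissected from a fetus at E12.5, a day of mid gestation, and 5 µg of it was labelled. The Sp3 allele, the strain, the litters and the parts of the heart taken are not given in the sources used here. The genes were chosen by name with their measured differences between knockout and wildtype and their intensities in these arrays in view, so these values are given as a description.

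YAP is a transcriptional coactivator that has no DNA-binding domain of its own and acts mainly through TEAD proteins, which bind the sequence CATTCC. The Hippo kinases, LATS among them, phosphorylate YAP and hold it in the cytoplasm, and several targets of YAP, Lats2 and Amotl2 included, feed back on it. In embryonic heart muscle YAP and TEAD1 are known to support proliferation, Nppa marks chamber muscle, and Ankrd1 and the natriuretic peptides rise in loaded or stressed heart muscle. Sp3 is a zinc finger factor that binds GC boxes, of which the core is GGGCGG.

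The promoter windows of 3 members are printed to show where these letters lie, since Ankrd1 carried the TEAD letters at more than 1 place, Ccn1 carried both motifs, and Nppa carried neither. Each window holds 250 bases before and 50 after the RefSeq start site on build GRCm38.p6, in the direction of transcription, and capitals mark CATTCC or GGGCGG on either strand. The Ankrd1 window is chr19:36119795-36120094 on the minus strand. That of Ccn1 is chr3:145649936-145650235 on the minus strand, and that of Nppa is chr4:148000472-148000771 on the plus strand.
Ankrd1: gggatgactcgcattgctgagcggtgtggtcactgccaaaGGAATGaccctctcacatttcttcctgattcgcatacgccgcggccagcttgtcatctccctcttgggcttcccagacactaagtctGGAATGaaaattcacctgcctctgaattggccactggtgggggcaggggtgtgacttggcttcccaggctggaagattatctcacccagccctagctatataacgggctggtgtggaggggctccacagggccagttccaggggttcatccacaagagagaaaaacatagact
Ccn1: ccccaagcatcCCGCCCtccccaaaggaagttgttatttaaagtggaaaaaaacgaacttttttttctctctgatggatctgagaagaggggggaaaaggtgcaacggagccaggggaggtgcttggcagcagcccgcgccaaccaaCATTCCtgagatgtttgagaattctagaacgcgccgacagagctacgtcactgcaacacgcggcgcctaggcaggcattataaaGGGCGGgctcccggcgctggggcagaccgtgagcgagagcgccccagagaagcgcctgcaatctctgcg
Nppa: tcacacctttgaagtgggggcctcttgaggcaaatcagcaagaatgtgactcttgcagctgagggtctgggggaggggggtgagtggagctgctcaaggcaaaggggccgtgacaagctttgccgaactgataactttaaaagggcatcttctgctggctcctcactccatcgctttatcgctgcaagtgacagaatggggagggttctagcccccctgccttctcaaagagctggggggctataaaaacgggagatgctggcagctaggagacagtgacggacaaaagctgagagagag

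Windows were found for 8 of the 10 genes, 9 windows in all, since Lats2 had a second one, which held neither motif. At least 1 CATTCC was present in 7 of the 8 genes, all but Nppa. Counted by window it was in 7 of 9, against 14.7% of the 32851 promoter windows in the RefSeq table. In Ankrd1 the 2 matches began at -210 and -123 from the start site, in Ccn1 at -103, in Nppb at -105 and in Amotl2 at -65. GGGCGG was present in 5 of the 8 genes and in 5 of the 9 windows, against 35.7% of all windows. It was not in the windows of Ankrd1, Nppa or Nppb. The first Lats2 window held 4 matches to it, and the windows of Yap1, Axl and Ccn1 held 2 each. A match describes the letters alone, and known YAP targets were listed, so the share with CATTCC is no independent result.

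For Sp3 itself the log2 intensity lay between 8.34 and 8.61 in knockout and between 9.54 and 9.87 in wildtype. Both groups lay far above 3.31, the 95th percentile of 44 probe sets for olfactory receptor genes, which served as a reference for transcripts not thought to be made here, and the part of the transcript that its probe set reads is not stated in the labels. The difference was -1.27 with a limma adjusted p of 0.00254, and 0.0665 without knockout a. Heart muscle markers were not prominent in these arrays labelled heart. Of 17 such genes 9 lay in the lower part of the intensity scale, under its median, whereas 0 of 14 hepatocyte and 0 of 14 erythroid genes did, and the median hepatocyte gene lay at the 97.8th percentile of level. Myh6, Myl2, Tnni3 and Ryr2, of the heart muscle list, lay at or below that reference of 3.31, and the other 13 lay above it. The brightest of the list, Actc1, Tnni1 and Tnnc1, lay at percentiles 86.87, 80.53 and 79.15 of level. Summed intensities, which weight bright genes most, overlapped between knockout and wildtype in 7 of 8 marker lists, macrophages being the exception. By gene, the mean was higher in knockout in 14 of 17 heart muscle, 1 of 14 hepatocyte and 2 of 14 erythroid markers. It was higher in 8 of 10 endothelial, 7 of 10 fibroblast, 7 of 8 epicardial, 2 of 7 smooth muscle and 0 of 8 macrophage markers. Among all genes 47.5% were higher, and no marker passed limma at an adjusted p under 0.05. In such bulk RNA, fewer cells of a type and less RNA per cell cannot be told apart. The median residual SD was 1.27, 1.39 and 1.28 in the 3 dimmest of 10 equal classes of probe sets and fell with each class above them, to 0.125 in the brightest.

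Ankrd1, a nuclear and sarcomeric ankyrin repeat protein of muscle, had a higher mean in knockout at both of its probe sets, but neither passed the test. Its probe set of higher mean, 1420992_at, read 4.21, 3.82 and 5.54 in knockout a, b and c, against 4.70, 2.93 and 3.42 in wildtype a, b and c. Knockout c was the highest array and wildtype b the lowest, and the groups overlapped because wildtype a lay above knockout a and b. The log2 difference was 0.84 ± 0.59 (standard error of the fit, n = 3 each), with a limma adjusted p of 0.774, and it was 0.33 without knockout c and 1.35 without wildtype a.

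At the other Ankrd1 probe set, 1420991_at, the 3 knockout arrays read 4.58, 3.62 and 4.96, against 0.97, 0.30 and 3.20 in wildtype a, b and c. All knockout arrays lay above all wildtype arrays. Wildtype a and b lay below 2.07, the median of the olfactory receptor probe sets, so the log2 difference of 2.90 ± 0.91 is not an exact size. It was 0.93 with 16 intensity units added before log2, and its limma adjusted p was 0.586. The probe sets differ most in wildtype a, which read 4.70 at the first and 0.97 at the second.

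Summed intensities of the heart muscle list were 1322, 1406 and 1214 in knockout a, b and c, against 1307, 570.7 and 730.1 in wildtype a, b and c. Wildtype b and c were the lowest arrays of this sum and of the brighter Ankrd1 probe set alike. Knockout c, highest in Ankrd1, had the lowest sum of the knockout arrays. Such a sum weights bright genes most, and Actc1, the brightest of the list, was itself lowest there among the knockout arrays. Its log2 intensity was 8.24 in knockout c, below 8.85 in knockout a and 8.99 in knockout b. Of the next brightest genes, Tnnc1 was also lowest of the knockout arrays in c, but Tnni1 and Myl7 were highest in c. The order of the knockout sums may thus rest on Actc1 alone. The part of heart muscle content in the Ankrd1 values was not tested.

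Both natriuretic peptide genes were dim, and 4.13 was the highest reading of either. Nppa, the atrial natriuretic peptide, read 3.42, 2.69 and 3.85 in knockout a, b and c, against 3.81, 3.40 and 4.13 in wildtype a, b and c. The groups overlapped, with knockout b lowest and wildtype c highest. The log2 difference was -0.46 ± 0.60 with a limma adjusted p of 0.876, and over the fits that left out an array it ran from -0.73 to -0.15.

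Nppb, the B-type natriuretic peptide, read 3.19, 3.67 and 1.35 in knockout a, b and c, against 3.88, 0.73 and 3.38 in wildtype a, b and c. A low array lay in each group, knockout c and wildtype b, and the difference of 0.08 ± 1.05 had a limma adjusted p of 0.993. It was -0.89 without wildtype b and 0.77 without knockout c, so these arrays give it no direction. Its mean over all arrays, 2.70, lay below the 95th percentile of the olfactory receptor probe sets, and Nppb was the only member gene whose probe set of highest mean did so.

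**Figure D1:**
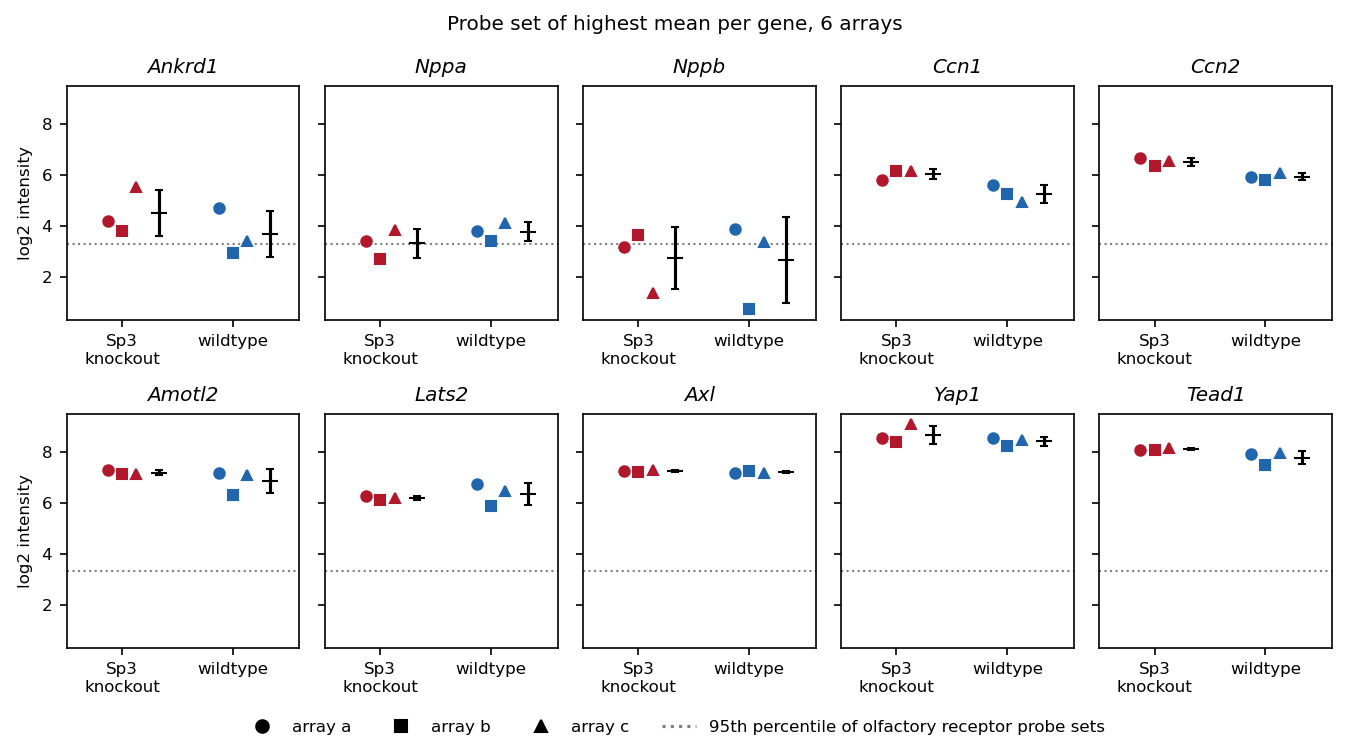
Log2 intensity (vertical axis) of the probe set of highest mean for each of the 10 genes, in 3 Sp3 knockout arrays (red, left) and 3 wildtype arrays (blue, right); bars are mean ± SD, and the dotted line is the 95th percentile of the olfactory receptor probe sets, 3.31. Ccn1, Ccn2 and Tead1 show no overlap between the groups, Axl is nearly level over all arrays, and Nppa and Nppb lie around the dotted line.

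Ccn2 and the brightest probe set of Ccn1 had higher values in every knockout array than in any wildtype array. Both genes encode secreted matricellular proteins and are among the most used readouts of YAP activity. Ccn2 read 6.66, 6.35 and 6.54 in knockout a, b and c, against 5.92, 5.82 and 6.08 in wildtype a, b and c. The lowest knockout array lay above the highest wildtype array, and the difference was 0.58 ± 0.20. Its limma adjusted p was 0.630, and over the fits that left out an array the difference ran from 0.50 to 0.66.

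Ccn1 has 4 probe sets, and they disagreed in direction. The brightest, 1416039_x_at, read 5.83, 6.17 and 6.16 in knockout a, b and c, against 5.61, 5.25 and 4.93 in wildtype a, b and c. Its difference was 0.79 ± 0.26 with a limma adjusted p of 0.600. The next, 1438133_a_at, read 4.60, 4.73 and 5.13 in knockout, against 5.30, 5.20 and 5.07 in wildtype. There knockout a and b lay below all wildtype arrays and knockout c among them, and the difference was -0.37 ± 0.30. The remaining 2 probe sets, both below the median level, had differences of -0.44 and -0.46 with overlapping groups. The mean over the 4 probe sets was -0.12, against 0.79 at the brightest alone, so the direction of Ccn1 rests on which probe set is taken. The suffix x marks a probe set that holds probes which can also match other sequences, and the transcript part read by each probe set is not stated in the labels.

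Amotl2, a junctional scaffold that binds YAP and holds it outside the nucleus, read 7.30, 7.13 and 7.14 in knockout a, b and c, against 7.20, 6.32 and 7.10 in wildtype a, b and c. Wildtype b alone lay apart. The difference of 0.31 ± 0.22, with a limma adjusted p of 0.773, was 0.04 without wildtype b.

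Lats2, the kinase that phosphorylates YAP, has 6 probe sets, of which 1 had a higher and 5 a lower mean in knockout, and the groups overlapped at all 6. The brightest, 1439441_x_at, read 6.28, 6.14 and 6.18 in knockout a, b and c, against 6.74, 5.87 and 6.46 in wildtype a, b and c, a difference of -0.16 ± 0.24. The wildtype arrays enclosed the knockout arrays on both sides. The next 2 probe sets by level differed by 0.02 and -0.05. The lowest difference of the gene, -1.29 ± 1.11 at 1419679_at, went with a reading of -0.59 in knockout b, and was -0.05 without that array.

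Axl, the receptor tyrosine kinase for the ligand Gas6, showed the smallest spread of the 10 genes at their brightest probe sets. That of Axl read 7.27, 7.24 and 7.31 in knockout a, b and c, against 7.19, 7.28 and 7.18 in wildtype a, b and c. The groups overlapped, since wildtype b lay above knockout a and b, and the difference was 0.05 ± 0.15 with a limma adjusted p of 0.949. The dimmer Axl probe set lay in the dimmest class, between -2.34 and 3.22 in knockout and between -1.89 and 2.94 in wildtype, and carries no usable direction.

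Yap1 read 8.56, 8.39 and 9.10 in knockout a, b and c at its brighter probe set, against 8.55, 8.24 and 8.50 in wildtype a, b and c. Knockout c lay apart from the other 5 arrays. The difference of 0.25 ± 0.17, with a limma adjusted p of 0.767, was 0.05 without knockout c. At the second Yap1 probe set the difference was 0.20 ± 0.24, with overlap.

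Tead1, the TEAD protein most tied to heart muscle, read 8.09, 8.10 and 8.17 in knockout a, b and c at its brighter probe set, against 7.92, 7.48 and 7.96 in wildtype a, b and c. All knockout arrays lay above all wildtype arrays, with wildtype b the lowest. The difference was 0.34 ± 0.15 with a limma adjusted p of 0.695, and 0.18 without wildtype b. The other Tead1 probe set, below the median level, differed by -0.18 ± 0.62 with overlap.

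**Figure D2:**
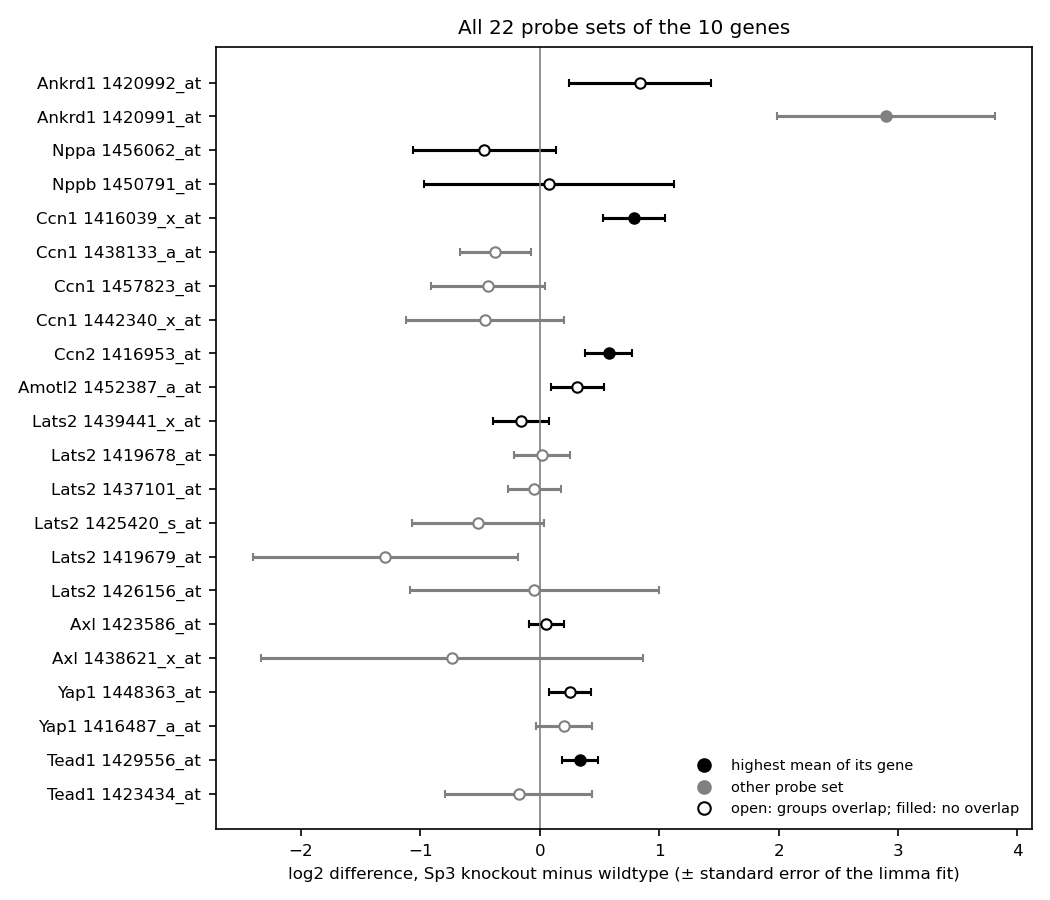
Log2 difference, Sp3 knockout minus wildtype (horizontal axis), with the standard error of the limma fit, for the 22 probe sets of the 10 genes (rows); black marks the probe set of highest mean of a gene and filled points mark groups that did not overlap. The 4 filled points, at Ankrd1, Ccn1, Ccn2 and Tead1, lie between 0.34 and 2.90, while the other 3 Ccn1 probe sets lie below 0.

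Of the 22 probe sets, 0 passed limma at an adjusted p under 0.05, where 0.0311% of all probe sets did. At an unadjusted p under 0.05 there were 4, or 18.2%, where 7.16% of all probe sets were, and limma without an intensity trend also called 0, as it did over all probe sets. The groups did not overlap with knockout higher in 4 of 22, against 6.15% of all probe sets, and with knockout lower in 0 of 22, against 6.89%. The mean was higher in knockout in 11 probe sets and lower in 11, beside 52.2% higher of all, and the median log2 difference was -0.01, beside 0.02 over all probe sets. With 1 probe set per gene, that of highest mean, 8 of the 10 genes had a higher mean in knockout, against 47.5% of the 18193 genes. The median difference was then 0.28, beside -0.02 over all genes, and it was 0.12 with 7 genes higher without wildtype b. Where members shared an array that stood apart, they are not separate observations of a genotype.

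Wildtype b was the lowest of the 6 arrays for 7 of the 10 genes, namely Ankrd1, Nppb, Ccn2, Amotl2, Lats2, Yap1 and Tead1. It lay -0.71 from the gene mean in Amotl2, -0.47 in Tead1 and -0.40 in Lats2. Averaged over the 10 genes, deviations were 0.15 in knockout a, 0.04 in knockout b and 0.20 in knockout c, against 0.22, -0.60 and -0.02 in wildtype a, b and c. Without Nppb, the gene below the reference level, they were 0.11, -0.07 and 0.38 in knockout a, b and c, against 0.12, -0.45 and -0.09 in wildtype a, b and c. Wildtype a lay within the range of the knockout arrays without Nppb and above them with it, and wildtype b was the lowest either way. Wildtype b also had the lowest array median, at 22.5 intensity units, where the other 5 arrays lay between 24.6 and 26.7. After each array was centred on its median, 6 of the 10 genes had a higher mean in knockout and the median difference was 0.21. After quantile normalization these were 7 genes and 0.31.

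**Figure D3:**
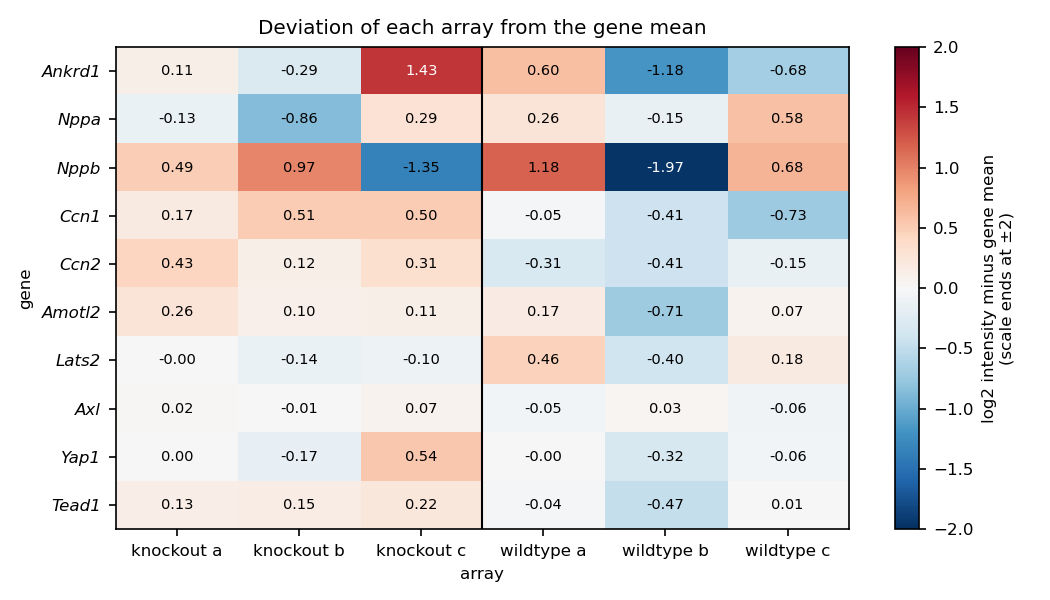
Deviation of the log2 intensity of each array (columns, 3 Sp3 knockout then 3 wildtype) from the mean of the gene over the 6 arrays (rows, probe set of highest mean per gene), printed in each cell; the colour scale ends at 2 either way. The wildtype b column is negative in 9 of the 10 genes and reaches -1.97 in Nppb, and the Axl row stays close to 0.

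Other genes of the same pathways were taken from 8 lists, and 0 of their 98 measured genes passed limma at an adjusted p under 0.05, where 0.0495% of all genes did. At an unadjusted p under 0.05 there were 15, where 8.71% of all genes were. The mean was higher in knockout in 70 and lower in 28, with a median of 0.14. Of 24 other YAP-TEAD target genes 14 were higher and 10 lower, with a median of 0.08 that was -0.03 without wildtype b and 0.00 after median centring. The median over all probe sets moved as well, from 0.02 to -0.03 without wildtype b and to -0.06 after median centring. Among them Crim1, a membrane protein that binds BMP ligands, averaged 7.62 ± 0.26 in knockout against 6.93 ± 0.30 in wildtype (mean ± SD of 3 arrays each), without overlap. Tgfb2, a TGF-beta ligand of the heart cushions, averaged 7.33 ± 0.12 in knockout against 6.73 ± 0.49 in wildtype, also without overlap. Birc5, a mitotic and survival protein, differed by -0.23, with all knockout arrays below all wildtype arrays. Cavin2, a caveolar coat protein, differed by -0.37, and Fstl1, a secreted glycoprotein, by 0.09, both with overlap. In this list the groups did not overlap with knockout higher in 4 of 24 genes, against 6.02% of all genes. With knockout lower this held for 1 of 24, against 9.04% of all genes.

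Of 17 measured Hippo kinases and adaptors 10 were higher and 7 lower, with a median of 0.03. Without wildtype b 8 were higher and the median was -0.01, and after median centring these were 8 and -0.05. In these settings the medians over all probe sets were -0.03 and -0.06. Stk4, a mammalian Hippo kinase, differed by -0.01, Mob1a, an activator of the LATS kinases, by -0.12, and Taok1, a kinase upstream of Stk4, by 0.13. Amot, an angiomotin that binds YAP as Amotl2 does, read 8.33, 8.20 and 8.08 in knockout a, b and c, against 8.98, 9.03 and 8.60 in wildtype a, b and c. All knockout arrays lay below all wildtype arrays, and the difference of -0.66 had a limma adjusted p of 0.243, the smallest of the 98 genes. Groups that did not overlap with knockout lower made up 9.04% of all genes. Fat4, a giant cadherin, differed by 0.59, with all knockout arrays above all wildtype arrays.

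Of 8 partners of YAP and TEAD 7 were higher, with a median of 0.44. Without wildtype b 5 were higher and the median was 0.31, and without knockout c these were 6 and 0.29. With 16 units added to every intensity, a step that shrinks the differences of dim probe sets, the median was 0.23. With dim probe sets left out it was 0.415, with 5 of 5 genes higher. Wwtr1, the paralogue of Yap1, differed by 0.07, Tead2 by 0.10, Tead3 by 0.41 and Tead4, in a dim class, by -0.05. Vgll4, a TEAD cofactor that competes with YAP, differed by 0.46. Vgll2, a TEAD cofactor of muscle, differed by 1.59, with wildtype b at 2.42 and the other 5 arrays between 5.21 and 6.31. Vgll1 differed by 1.74 in the class of probe sets next to the dimmest, so that its size is not exact.

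In the natriuretic peptide pathway 9 of 10 measured genes were higher, with a median of 0.27, and 5 were higher without wildtype b, where the median was 0.09. With 16 units added it was 0.16, and with dim probe sets left out 0.22, with 5 of 6 genes higher. Npr2, the receptor of the C-type peptide, averaged 5.74 ± 0.16 in knockout against 4.99 ± 0.50 in wildtype. Npr3, the clearance receptor, differed by 0.19, Furin, a protease that processes the B-type precursor, by 0.24, Prkg1, the cGMP-dependent kinase, by 0.52, and Pde5a, a cGMP phosphodiesterase, by 0.20. The groups did not overlap for Npr2, Npr3, Furin and Prkg1, 4 of 10, where 6.02% of all genes did so in this direction.

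All 11 genes of the Ankrd1 family and its sarcomeric partners had a higher mean in knockout, with a median of 0.32, and 10 were higher with a median of 0.20 without wildtype b. With 16 units added the median was 0.14, and with dim probe sets left out it was 0.30, with 6 of 6 genes higher. Ttn, the giant sarcomeric protein to which Ankrd1 binds, averaged 6.03 ± 0.72 in knockout against 4.79 ± 0.52 in wildtype, without overlap and with a limma adjusted p of 0.564. Ybx1, a nucleic acid-binding protein reported to bind Ankrd1, differed by 0.14, Capn3, a muscle protease, by 0.13, and Tln1, an adhesion protein, by 0.07. Myot, a Z-disc protein, averaged 4.05 ± 0.41 in knockout against 0.54 ± 2.19 in wildtype, a dim level at which the size is not exact. Ttn is also counted among the heart muscle markers, of which 14 of 17 had a higher mean in knockout, with a median of 0.88. That median was 0.40 with 16 units added, and 1.16 with dim probe sets left out, where 7 of 8 markers were higher. The part of heart muscle content in the list of the Ankrd1 family and its partners was not tested.

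Of 12 measured genes of cardiac stress and the fetal program 7 were higher and 5 lower, with a median of 0.28 that was 0.06 without wildtype b and 0.11 with 16 units added. With dim probe sets left out the direction turned, with 2 of 7 genes higher and a median of -0.11. Fhl1, a muscle LIM protein, differed by -0.37 and Rcan1, a calcineurin inhibitor, by -0.09, both without overlap. The groups did not overlap with knockout lower in these 2 of 12 genes, against 9.04% of all genes. With knockout higher this held for 1 of 12, the dim Myh6, against 6.02% of all genes. Hspb1, a small heat shock protein, differed by -0.62, and Atp2a2, a calcium pump that heart muscle uses, by -0.11. Atp2a2 lay at percentile 97.95 of level, where the median heart muscle marker lay at 48.2. The part of heart muscle in the Atp2a2 values was not tested. Of 12 factors known to act on the Ankrd1 or natriuretic peptide promoters 11 were higher, with a median of 0.32, and 9 were higher with a median of 0.18 without wildtype b. With 16 units added the median was 0.20, and with dim probe sets left out it was 0.30, with 8 of 9 factors higher. Mef2c averaged 8.63 ± 0.07 in knockout against 8.29 ± 0.23 in wildtype, without overlap, and Hand2 differed by 0.51 with overlap. Rest, a repressor that acts on the Nppa gene, differed by 0.35. Of the 4 genes of Axl ligands and related receptors 3 were lower, with a median of -0.37. It was -0.19 with 16 units added and -0.33 with dim probe sets left out. Mertk, a receptor related to Axl that macrophages carry, averaged 6.14 ± 0.08 in knockout against 6.63 ± 0.08 in wildtype, without overlap and with a limma adjusted p of 0.658, while Gas6 differed by -0.33 and Pros1 by 0.00. Summed macrophage markers lay between 1016 and 1571 in knockout and between 1956 and 2007 in wildtype, and their part in the Mertk values was not tested.

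**Figure D4:**
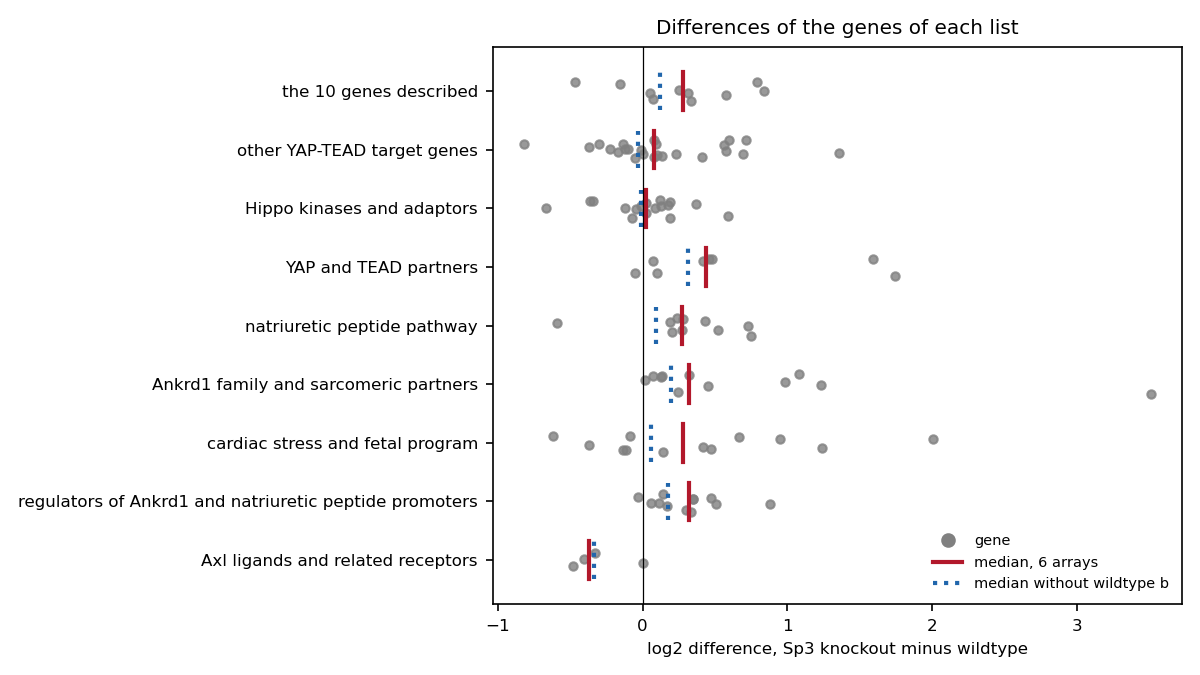
Log2 difference, Sp3 knockout minus wildtype (horizontal axis), of each gene (grey points) in the 10 genes described and 8 further lists (rows); the red line is the median over 6 arrays and the dotted blue line the median without wildtype b. The median without wildtype b is lower than that over 6 arrays in every list but the Axl ligands and related receptors, and falls to 0.12 in the 10 genes, against 0.28 over 6 arrays.

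The genes whose profile over the 6 arrays was most like that of Ankrd1 were Ddr1, Ccdc171, Tnnt2, Prg2 and Gm6958. Their centred log2 values differed from those of the brighter Ankrd1 probe set by a root mean square of 0.26 to 0.40 over the 6 arrays, among 1082 genes above the median level with enough spread. Knockout c was the highest array in all 5, and wildtype b the lowest, which follows largely from picking them for likeness to Ankrd1. Tnnt2, cardiac troponin T, is a heart muscle marker. For the brightest Ccn1 probe set, 1416039_x_at, the nearest were Flnc, Per2, Ctla2a, Sox18 and Plac1, at 0.14 to 0.21 among 4390 genes. The other Ccn1 probe sets, which differed in the other direction, were not used here. In Flnc, filamin C, the centred values were 0.11, 0.39 and 0.79 in knockout a, b and c, against -0.19, -0.36 and -0.74 in wildtype a, b and c. Genes near the top of so long a ranking on 6 arrays are a description of these arrays.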

How the data were processed

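Oligonucleotide arrays were read for 3 Sp3 knockout and 3 wildtype samples, grouped by their titles. The authors deposited linear intensities, between 0.0562 and 12897. GCOS and RMA are named in the submitters' processing notes; their roles, versions and the scaling between arrays are not given in the sources used here. Per the labels, each RNA was that of a separate heart. No pair of arrays shared more than 1 identical value. Litters are not given, so p-values cover the spread of these samples alone, and precision is limited by the number of arrays.

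Of 45101 probe sets 64 controls were left out, and log2 was taken with no normalization or filter. The platform annotation held 34945 probe sets with 1 gene symbol, 932 with more and 9160 with none; 34741 were matched by gene identifier to GRCm38.p6. The test was limma 3.58.1 in R 4.3.3 (lmFit, then eBayes with an intensity trend and robust estimation), two-sided, Benjamini-Hochberg adjusted over all probe sets, and was tested on simulated data. The members, the lists, the naming rule and the lead of the trend fit were chosen with earlier results of these data known. Each gene stood in by its brightest probe set unless stated. Named were the members, Sp3, the 3 genes of highest level and the 2 of smallest p in each pathway list, Wwtr1, the Tead genes, and the 5 genes nearest in profile to Ankrd1 and Ccn1. Profiles were compared among genes above the median level whose SD over arrays was at least 0.5 times that of the gene in question.

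Alternatives were quantile normalization, median centring, 16 units added before log2, dim probe sets left out, no trend, array weights, the letter as a block and each array left out; counts of genes under these were added after seeing the data. Arrays of the same letter had deviations from the group means that correlated at -0.01, 0.05 and 0.08 across probe sets. Between unlike letters the correlations ran from -0.07 to 0.02, so these values do not settle whether letters pair the arrays. The labels do not say what a letter marks, so the letters were used as a block only among the alternatives.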

Additional observations from a re-analysis of the deposited data

How the results depend on the processing

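Under 13 alternatives 0 member probe sets passed limma, the smallest adjusted p of a member in any of them being 0.197, and 13 of the 22 kept 1 sign throughout. The median over member probe sets, -0.01, was 0.20 when dim probe sets were left out, which kept 11 of the 22. The median over member genes ran from 0.12 without wildtype b to 0.44 without wildtype a.

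The Sp3 difference of -1.27 was the same without the intensity trend, where its adjusted p was 0.279. With each array left out its difference ran from -1.37 to -1.20, and the call was lost without knockout a. Over all probe sets limma called 14 with the trend, 0 without it, although 2699 had an unadjusted p under 0.05 there, 25 with array weights and 258 with the letter as a replicate block. The block changed no call of a member or of Sp3, and among the 98 pathway genes it called 1, Amot, at a limma adjusted p of 0.0192. With each array left out the count ran from 3 without knockout a to 24 without wildtype c. With each array left out, list medians ran from -0.03 to 0.12 in the other YAP-TEAD targets, -0.01 to 0.07 in Hippo kinases and adaptors, 0.29 to 0.63 in YAP and TEAD partners, and 0.09 to 0.60 in the natriuretic peptide pathway. They ran from 0.20 to 0.51 in the Ankrd1 family, 0.06 to 0.36 in cardiac stress, 0.16 to 0.51 in promoter regulators, and -0.43 to -0.18 in Axl ligands and related receptors. The causes were not tested. The low signal of Nppa, Nppb and the second Ankrd1 probe set limits what their differences can show.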
